A study of Mus musculus with 4 samples.

Results

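Lipogenic enzymes turn surplus carbohydrate carbon into fatty acids and triglycerides. Their transcripts were described in 4 libraries of liver mitochondrial RNA. The set was given by name as Scd1, Fasn, Acaca, Acacb, Acly, Me1, Elovl5, Elovl6, Dgat2 and Gpam. Of these 10 genes, 6 were matched by symbol to a row of the deposited table of 37819 features, namely Scd1, Acacb, Acly, Me1, Elovl5 and Dgat2. Fasn, Acaca, Elovl6 and Gpam were not analysed here. All 6 matched genes reached 10 counts in 1 or more libraries, the filter that 5347 features passed in all.

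Each group was a single library from mice 7 weeks after birth, so no difference has a replicate check and no p-value is given. The ob library came from mice whose genotype label is B6.Cg-Lepob/J, a strain that lacks functional leptin. The NASH library came from mice labelled wild type-NASH. The labels do not say by which diet or treatment NASH (non-alcoholic steatohepatitis) was produced. The db library came from mice whose genotype label names the BKS background and the Leprdb mutation of the leptin receptor, although their strain label reads C57BL/6J. The fourth library was wild-type C57BL/6J. If the db mice were on the BKS background, strain and genotype cannot be told apart in comparisons of db. The number of animals behind each library is not stated. RNA was depleted of ribosomal RNA before sequencing. Transcripts of nuclear genes, the lipogenic enzymes included, are levels in the mitochondrial preparation and not in whole liver.

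In the pathway, ATP citrate lyase (Acly) releases acetyl-CoA in the cytosol, and malic enzyme (Me1) supplies NADPH. Acetyl-CoA carboxylases (Acaca and Acacb) make malonyl-CoA, and fatty acid synthase (Fasn) builds palmitate from it. Elongases of the Elovl family lengthen the chain, stearoyl-CoA desaturase (Scd1) puts a double bond into it, and Gpam and Dgat2 catalyse the first and the last step of triglyceride synthesis. In liver, insulin acting through SREBP-1 (Srebf1) and sugars acting through ChREBP (Mlxipl) are known to induce many of these genes together.

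The library totals were 1000102 counts in ob, 529612 in NASH, 1005741 in db and 627731 in wild-type. Protein-coding features, leaving out 9 features that resemble mtDNA genes, took 40.1% of counts in ob, 11.5% in NASH, 57.1% in db and 24.2% in wild-type. Levels are given as CPM, counts per 1000000 of the library total after TMM scaling. A fold is a ratio of scaled counts with an exact binomial 95% interval in parentheses, which covers counting error only and compares libraries rather than conditions. A gene is called higher or lower when log2(CPM + 1) differed by at least 2-fold. All 9 hepatocyte markers with a row had counts in every library, and their summed level was 38600 CPM in ob, 6126 CPM in NASH, 124134 CPM in db and 55449 CPM in wild-type. Alb made up most of this sum, with 28795 CPM in ob, 4647 CPM in NASH, 98704 CPM in db and 39151 CPM in wild-type. Ratios to the sum therefore depend mostly on Alb, and their intervals do not cover the spread between markers. Cps1, for instance, was higher in ob (477 CPM) than in wild-type (138 CPM), whereas Alb was lower. In such bulk samples, fewer cells of a type and less RNA per cell cannot be told apart.

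Scd1, the desaturase that turns stearate into oleate, held most of the set's counts outside the NASH library. It had 12905 counts in ob, 13 in NASH, 2530 in db and 411 in wild-type. These correspond to 8761 CPM in ob, 27.2 CPM in NASH, 2448 CPM in db and 978 CPM in wild-type. The ob library was highest, and db and then wild-type followed, with NASH far below. For each pair of neighbours in this order, the interval of the ratio left out equality. Per kilobase of exon, the Scd1 level was 1791 CPM in ob, 5.55 in NASH, 500.4 in db and 199.9 in wild-type. By that measure Scd1 held rank 6 among protein-coding features in ob, rank 1192 in NASH, rank 71 in db and rank 82 in wild-type. Adipocytes express Scd1 strongly, and the 8 adipocyte markers with a row summed to 22 counts in ob, 10 in NASH, 12 in db and 11 in wild-type. Of these markers, Lipe had 10 counts in ob, 7 in NASH, 6 in db and 6 in wild-type. Cidec had 6 in ob, 1 in NASH, 3 in db and 0 in wild-type, and Fabp4 had 4 in ob, 0 in NASH, 2 in db and 3 in wild-type. Plin1 and Lep had 0 counts in all 4 libraries, and Adipoq had 2 counts in NASH and 0 in ob, db and wild-type. The part of adipocytes in the Scd1 level was not tested.

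**Figure D1:**
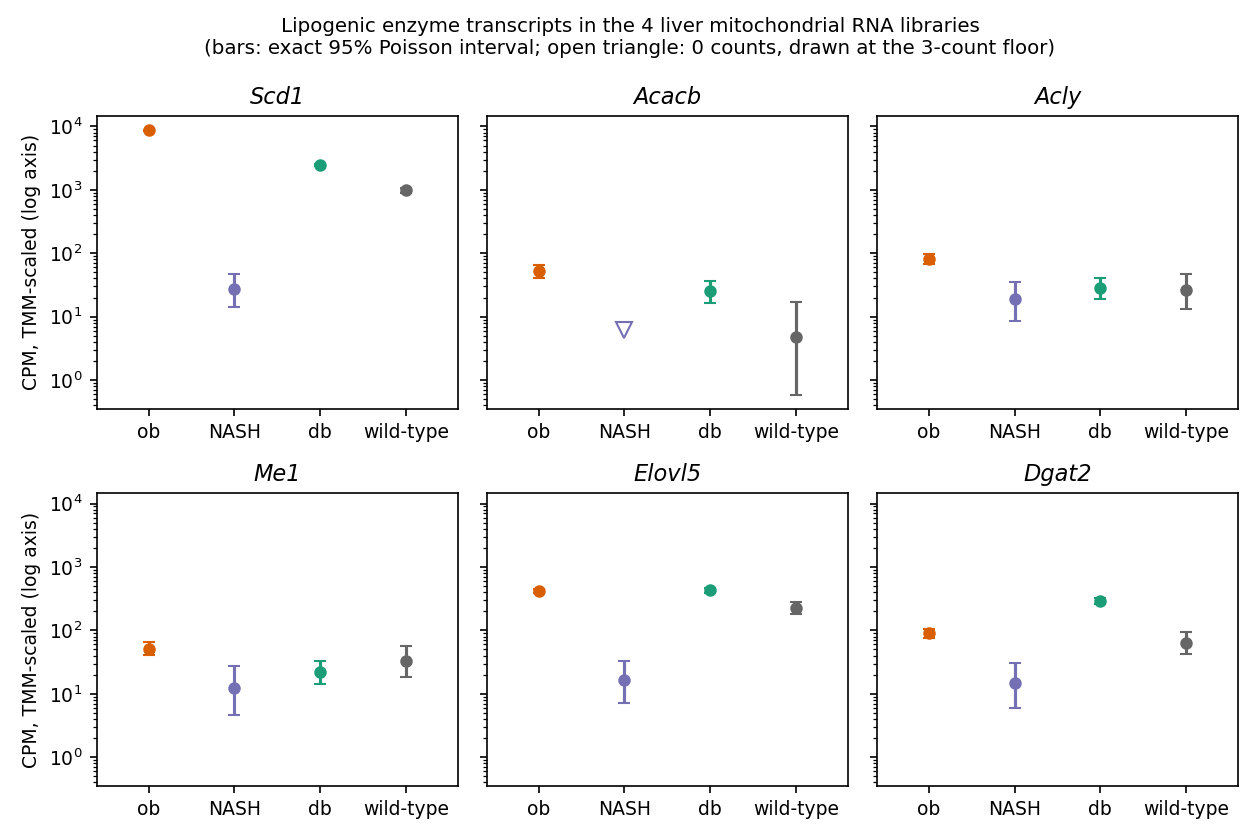
Level of each of the 6 lipogenic enzyme transcripts in the ob, NASH, db and wild-type libraries, in TMM-scaled CPM on a log axis. Points are single libraries, bars are exact 95% Poisson intervals, and the open triangle marks 0 counts at the floor of 3 counts. Scd1 spans 27.2 CPM in NASH to 8761 CPM in ob, and the NASH library has the lowest point for Scd1, Acly, Me1, Elovl5 and Dgat2, with intervals for Acly and Me1 that overlap those of db and wild-type.

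Scd1 is a gene of the minus strand of chromosome 19 (mm10, 44394451 to 44407709), next to the related genes Scd2, Scd3 and Scd4. Their coding sequences are 90.3% (Scd2), 91.5% (Scd3) and 85.1% (Scd4) identical to that of Scd1. The sequences that follow are shown because short reads from them can fit several of these genes. They are a 75-base coding stretch, taken from the GENCODE M21 transcripts, that is the same in Scd1, Scd2 and Scd4 and has 1 different base in Scd3, given as a capital.
Scd1: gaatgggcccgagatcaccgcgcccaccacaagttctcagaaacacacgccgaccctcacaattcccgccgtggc
Scd2: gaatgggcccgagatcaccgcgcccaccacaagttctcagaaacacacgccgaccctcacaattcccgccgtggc
Scd3: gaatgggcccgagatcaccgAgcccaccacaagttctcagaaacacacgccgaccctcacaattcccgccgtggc
Scd4: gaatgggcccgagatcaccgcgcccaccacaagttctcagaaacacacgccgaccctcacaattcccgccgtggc
The stretch begins at coding base 442 of Scd1. Of the 50-base windows in Scd1 transcripts, 4.56% also occurred in transcripts of another gene, most often Scd3.

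The counts of the neighbouring genes were a similar small share of those of Scd1 in ob, db and wild-type. Scd2 had 593 counts in ob, 3 in NASH, 110 in db and 18 in wild-type, which is 4.60 counts per 100 Scd1 counts in ob (4.22 to 4.99), 4.35 in db (3.56 to 5.26) and 4.38 in wild-type (2.57 to 7.01). Scd3, known as a desaturase of skin, had 747 counts in ob, 0 in NASH, 132 in db and 19 in wild-type. Per 100 Scd1 counts that is 5.79 in ob (5.37 to 6.23), 5.22 in db (4.35 to 6.22) and 4.62 in wild-type (2.75 to 7.31). Scd4 had 96 counts in ob, 0 in NASH, 14 in db and 2 in wild-type. The ratios of each neighbour to Scd1 overlapped in their intervals across these 3 libraries, although Scd1 itself spanned 411 to 12905 counts. Many of these counts were fractional as deposited, such as 18.5 for Scd2 and 19.2 for Scd3 in wild-type. Levels of Scd2, Scd3 and Scd4 are therefore uncertain, and the part that shared reads have in them was not tested.

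**Figure D2:**
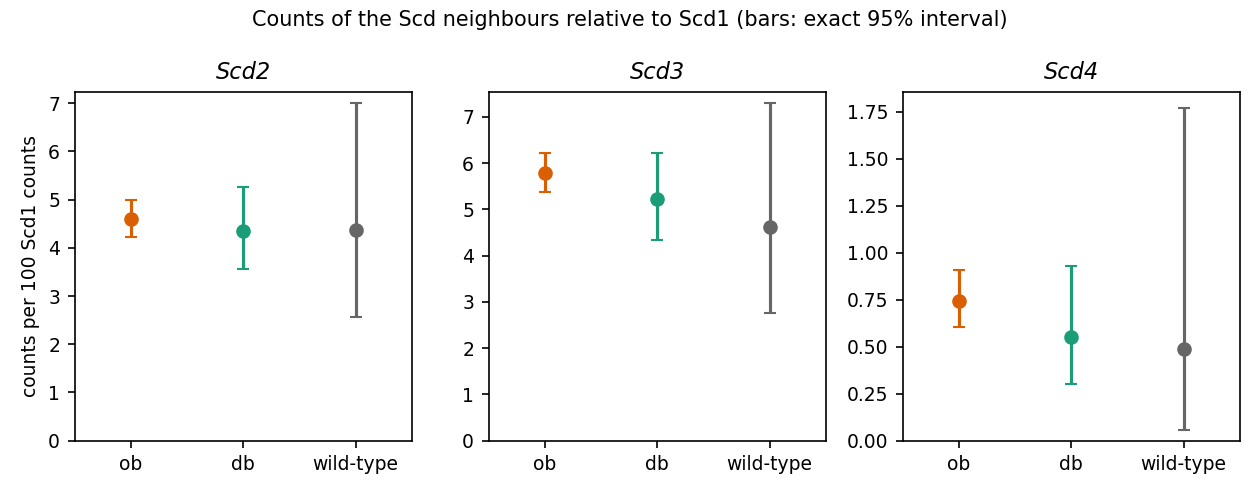
Counts of Scd2, Scd3 and Scd4 per 100 Scd1 counts in the ob, db and wild-type libraries, with exact 95% intervals; each panel has its own vertical axis from 0. NASH is left out because it held 13 Scd1 counts. For Scd2 the ratios are 4.60 in ob, 4.35 in db and 4.38 in wild-type.

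Elovl5 encodes an elongase of polyunsaturated fatty acids (chromosome 9, 77917364 to 77984519, plus strand). Per kilobase of exon its level was the second of the set in ob, at 119 CPM, in db, at 121 CPM, and in wild-type, at 64.2 CPM. It had 616 counts (418 CPM) in ob, 8 (16.7 CPM) in NASH, 441 (427 CPM) in db and 95 (226 CPM) in wild-type. On the TMM scale the ob and db libraries lay together above wild-type, with NASH lowest, and the interval of the db to ob ratio included equality. As a share of protein-coding counts Elovl5 took 0.154% in ob, 0.0132% in NASH, 0.0768% in db and 0.0625% in wild-type. Relative to 10000 hepatocyte marker counts it had 108 in ob, 27.3 in NASH, 34.4 in db and 40.8 in wild-type. The ob library thus stood above db on both of these bases. Dgat2 encodes the enzyme that completes triglycerides at the endoplasmic reticulum and lipid droplets, and lies on chromosome 7 (99153663 to 99182713, minus strand). It had 132 counts (89.6 CPM) in ob, 7 (14.6 CPM) in NASH, 298 (288 CPM) in db and 27 (64.2 CPM) in wild-type. On the TMM scale Dgat2 was highest in db, and the interval of the ob to wild-type ratio included equality. Per 10000 counts of the hepatocyte markers, the Dgat2 count was 23.2 in ob, 23.9 in NASH, 23.2 in db and 11.6 in wild-type, so that db did not stand above ob or NASH on that basis.

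The enzymes of the first steps had few counts outside ob. Acly (chromosome 11, 100476353 to 100528000, minus strand) had 119 counts (80.8 CPM) in ob, 9 (18.8 CPM) in NASH, 29 (28.1 CPM) in db and 11 (26.2 CPM) in wild-type. The ob library stood above the others, and the order of NASH, db and wild-type was within counting error. Me1 (chromosome 9, 86581363 to 86695914, minus strand) had 76 counts (51.6 CPM) in ob, 6 (12.5 CPM) in NASH, 23 (22.3 CPM) in db and 14 (33.3 CPM) in wild-type. For every pair of neighbours in its order the interval of the ratio included equality, and 22.9% of its 50-base windows also occurred in transcripts of other genes, most often Gm7049. Acacb encodes the carboxylase isoform of the mitochondrial outer membrane, whose malonyl-CoA is known to restrain fatty acid entry into mitochondria. It lies on chromosome 5 (114146535 to 114250761, plus strand) and had 76 counts (51.6 CPM) in ob, 0 in NASH, 26 (25.2 CPM) in db and 2 (4.76 CPM) in wild-type. The 0 counts in NASH allow up to 6.27 CPM (3 counts), so NASH and wild-type could not be told apart for Acacb. Windows of Acacb, Acly, Elovl5 and Dgat2 were shared with other genes in 0% of cases.

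Of the 6 genes, 4 had promoters in the RefSeq table (GRCm38.p6), with 2 start sites for Me1. The 250 bases before each start were searched on both strands for the E-box CACGTG bound by USF factors, the sterol element TCACNCCAC, the CCAAT box CCAAT and the GC box GGGCGG. Of 32851 such windows over all genes, 6.02% held the E-box, 1.05% the sterol element, 33.8% the CCAAT box and 32.7% the GC box. The Elovl5 window is shown because it held the E-box, which the windows of Acacb, Acly and Me1 did not, and the Acly window because it held the most GC boxes. The motifs, read on either strand, are in capitals. Elovl5, chr9:77917115-77917364 on the plus strand, held 1 E-box and 2 CCAAT boxes. Acly, chr11:100528001-100528250 on the minus strand, held 4 GC boxes.
Elovl5: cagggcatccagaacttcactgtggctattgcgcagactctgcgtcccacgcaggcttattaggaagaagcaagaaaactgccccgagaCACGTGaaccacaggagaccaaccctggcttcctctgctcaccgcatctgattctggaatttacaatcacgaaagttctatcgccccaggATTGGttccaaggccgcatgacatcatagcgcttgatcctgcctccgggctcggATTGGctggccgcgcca
Acly: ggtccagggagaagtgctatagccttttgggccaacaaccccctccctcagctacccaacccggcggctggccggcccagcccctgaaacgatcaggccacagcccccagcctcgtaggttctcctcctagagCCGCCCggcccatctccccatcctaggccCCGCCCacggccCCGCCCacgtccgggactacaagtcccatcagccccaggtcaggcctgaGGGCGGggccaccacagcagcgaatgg
The upstream Me1 window held 3 GC boxes, the other Me1 window 1 CCAAT box and the Acacb window 1 CCAAT box. The sterol element occurred in 0 of these windows, which says only that these letters are not there.

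In ob against wild-type, the question was how the transcripts stand without leptin. Of the 6 enzymes 3 were called higher and 0 lower, against 34.7% of all tested features called higher and 15.7% called lower. Scd1 was 8.96-fold higher (8.12 to 9.91), Acacb 10.8-fold higher (2.90 to 91.1) and Acly 3.09-fold higher (1.66 to 6.35). Elovl5 stood at 1.85-fold (1.49 to 2.32), Me1 at 1.55-fold (0.869 to 2.97) and Dgat2 at 1.39-fold (0.917 to 2.196), which did not reach the threshold. The median log2 fold change was 1.24 over the 6 enzymes and 0.40 over all features tested. All 6 enzymes were on the higher side under all 11 alternatives of scaling, filter, pseudocount and rounding. The count called higher ran from 3 to 6 over them, with 6 under plain library totals. Summed counts were 13924 in ob and 560 in wild-type, a 7.09-fold higher level (6.52 to 7.73), and without Scd1 they were 1019 in ob and 149 in wild-type, a 1.95-fold higher level (1.64 to 2.33).

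RNAs of other kinds also differed between these libraries. The nuclear RNA Neat1 had 7450 counts in ob, 5 in NASH, 109 in db and 7 in wild-type, and the 6 erythroid genes summed to 2713 counts in ob, 10 in NASH, 39 in db and 72 in wild-type. Their part in the levels above was not tested. Per 10000 counts of the hepatocyte markers, the Scd1 count was 2270 in ob, against 176 in wild-type, a ratio of 12.9 (11.7 to 14.2). On the same basis Elovl5 was 2.66-fold (2.14 to 3.33), Me1 2.22-fold (1.25 to 4.26) and Dgat2 2.004-fold (1.32 to 3.15) of wild-type. With the marker sum as the total, 2417 of all 5347 features were called higher and 495 lower, with a median log2 fold change of 0.84.

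In NASH against wild-type, which asked about steatohepatitis, Scd1 and Elovl5 stood out as low. Of the 6 enzymes 0 were called higher and 5 lower, against 20.3% of all features called higher and 32.0% called lower. Where the interval also had to leave out equality, 3 enzymes were called lower, against 14.3% of all features. Scd1 was 36.0-fold lower (20.8 to 68.2), Elovl5 13.5-fold lower (6.59 to 32.2) and Dgat2 4.39-fold lower (1.87 to 12.0). Me1 was 2.66-fold lower with an interval that reached equality (0.960 to 8.44), and Acacb was at or under the floor in both libraries, so that it has no fold. Acly stood at 0.718 of wild-type (0.263 to 1.91). The median log2 fold change was -2.29 over the 6 enzymes and -0.15 over all features tested. The set held 43 counts in NASH and 560 in wild-type, and 14.8-fold lower levels (10.9 to 20.7) in sum.

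The hepatocyte markers were 9.05-fold lower (8.71 to 9.41) in NASH than in wild-type, and the 10 macrophage markers summed to 1151 CPM in NASH and 278 CPM in wild-type. The part of either in these levels was not tested beyond the ratios that follow. Per 10000 hepatocyte marker counts, the Scd1 count was 44.3 in NASH, against 176 in wild-type, which is 3.98-fold lower (2.301 to 7.54). Elovl5 had 27.3 in NASH and 40.8 in wild-type on this basis, a ratio of 0.669 (0.281 to 1.37). The sign turned on this basis for Acly, at 6.50-fold (2.38 to 17.3) of wild-type, Me1, at 3.40-fold (1.07 to 9.43), and Dgat2, at 2.06-fold (0.757 to 4.85). With the marker sum as the total, 4103 of all 5347 features were called higher and 501 lower, with a median log2 fold change of 2.63. The log2 fold changes were then 2.63 for Acly, 1.72 for Me1 and 1.02 for Dgat2, none of them above that median. Scd1 and Elovl5 were on the lower side of wild-type under all 11 alternatives, while Acly, Me1 and Dgat2 changed sides under at least 1 of them. Acacb, with 0 counts in NASH, cannot change sides under any scaling.

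In db against wild-type, which asked about loss of the leptin receptor, 3 of the 6 enzymes were called higher and 0 lower. Among all features 28.9% were called higher and 21.5% lower. Dgat2 was 4.49-fold higher (3.02 to 6.92), Acacb 5.29-fold higher (1.32 to 46.0) and Scd1 2.503-fold higher (2.25 to 2.78). Elovl5 stood at 1.89-fold (1.51 to 2.38), Acly at 1.07-fold (0.520 to 2.38) and Me1 at 0.668-fold (0.329 to 1.40). The median log2 fold change was 1.12 over the 6 enzymes and 0.10 over all features tested. The hepatocyte markers were themselves 2.24-fold higher (2.21 to 2.27) in db in sum, although not each of them was. Cps1 was 1079 CPM in db and 138 CPM in wild-type, and Fgb was 2167 CPM in db and 2330 CPM in wild-type. Relative to the marker sum Scd1 was 1.12-fold (1.01 to 1.24), Elovl5 0.843-fold (0.674 to 1.06) and Dgat2 2.005-fold (1.35 to 3.09) of wild-type. Acacb stood at 2.36-fold (0.591 to 20.5) and Acly at 0.479-fold (0.232 to 1.06) of wild-type on this basis, and Me1 was 3.35-fold lower (1.59 to 6.80). With the marker sum as the total, 562 of all 5347 features were called higher and 2210 lower, with a median log2 fold change of -0.76. Scd1, Acacb and Dgat2 stayed on the higher side under all 11 alternatives, and Acly, Me1 and Elovl5 changed sides under at least 1.

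**Figure D3:**
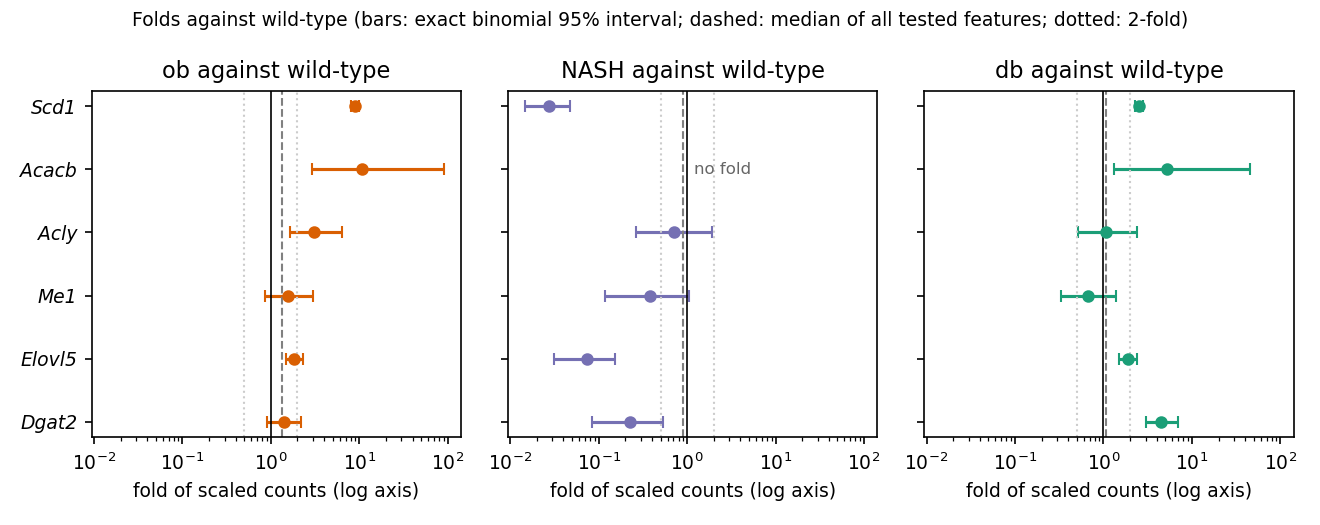
Fold of scaled counts of each enzyme in ob, NASH and db against wild-type, on log axes, with exact binomial 95% intervals. The solid line is equality, the dashed line the median of all tested features and the dotted lines 2-fold. Scd1 stands at 8.96-fold in ob, 36.0-fold lower in NASH and 2.503-fold in db, and Acacb in NASH has no fold.

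The make-up of the set within a library does not depend on scaling. Scd1 took 92.7% of the set's counts in ob (exact Clopper-Pearson interval 92.2 to 93.1), 30.2% in NASH (17.2 to 46.1), 75.6% in db (74.1 to 77.0) and 73.4% in wild-type (69.5 to 77.0). The interval of ob lay above all others, that of NASH below all others, and those of db and wild-type overlapped. In ob against wild-type the fold of Scd1 was 4.59 times (3.74 to 5.61) that of the other 5 enzymes together. In NASH against wild-type it was 6.34 times lower (3.11 to 13.6), and in db against wild-type the ratio was 1.12 (0.909 to 1.38). Elovl5 held most of the other counts, with 616 of 1019 in ob and 95 of 149 in wild-type. The contrast in ob did not hold for each enzyme, because Acacb stood at 10.8-fold (2.90 to 91.1) and Scd1 at 8.96-fold. Among the other 5, Elovl5 took 4.42% of the set in ob, 18.6% in NASH, 13.2% in db and 17.0% in wild-type, and Dgat2 took 0.948% in ob, 16.3% in NASH, 8.90% in db and 4.82% in wild-type. The set as a whole took 3.47% of protein-coding counts outside the features resembling mtDNA genes in ob (3.42 to 3.53), 0.0709% in NASH (0.0513 to 0.0955), 0.583% in db (0.564 to 0.603) and 0.369% in wild-type (0.339 to 0.4004).

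**Figure D4:**
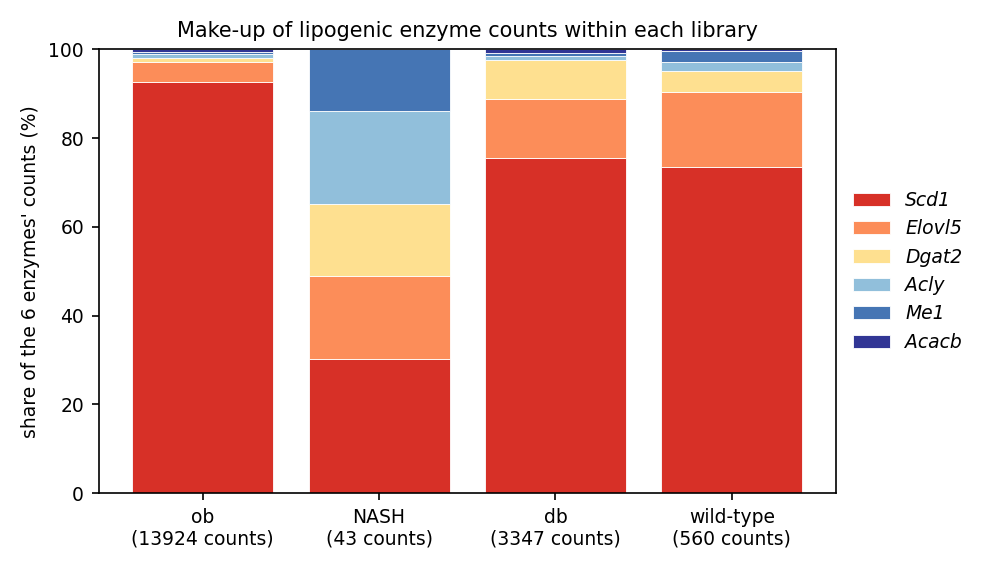
Share of each enzyme in the summed counts of the 6 enzymes, in percent, for the ob, NASH, db and wild-type libraries, with the summed counts under each bar. Scd1 fills 92.7% of the ob bar, 30.2% of the NASH bar, 75.6% of the db bar and 73.4% of the wild-type bar.

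Between the leptin-receptor and the leptin mutant, db against ob, 1 enzyme was called higher and 4 lower, against 19.6% of all features called higher and 30.3% called lower. Dgat2 was 3.22-fold higher (2.61 to 3.98) in db. Scd1 was 3.58-fold lower (3.43 to 3.74), Acly 2.88-fold lower (1.91 to 4.48), Me1 2.32-fold lower (1.44 to 3.87) and Acacb 2.05-fold lower (1.30 to 3.34) in db. Elovl5 stood at 1.02-fold (0.901 to 1.155). The enzymes other than Scd1 summed to 817 counts in db and 1019 in ob, a ratio of 1.14 after scaling (1.04 to 1.25). The fold of Scd1 was 4.09 times lower (3.69 to 4.53) than theirs, whatever the scaling. Dgat2 was called higher under TMM but not under totals of protein-coding features. Its log2 fold change was then 0.65, against a median of -1.07 over all features. The hepatocyte markers summed to 124134 CPM in db and 38600 CPM in ob. With their sum as the total, the log2 fold change was 0.00076 for Dgat2, so that no difference remained relative to the markers. It was -1.65 for Elovl5, which was then called lower in db. On that basis 40 of all 5347 features were called higher and 3590 lower, with a median log2 fold change of -1.56.

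In NASH against ob, 6 of the 6 enzymes were called lower, against 45.6% of all features. Scd1 was 323-fold lower (189 to 606), Elovl5 25.0-fold lower (12.6 to 58.2) and Acacb at least 8.23-fold lower in NASH. The hepatocyte markers summed to 6126 CPM in NASH and 38600 CPM in ob. With their sum as the total, 3 of the 6 were called lower in NASH, with log2 fold changes of -5.67 for Scd1, -5.61 for Acacb and -1.98 for Elovl5. The sign then turned for Acly (0.55), Me1 (0.60) and Dgat2 (0.039). On that basis 3340 of all 5347 features were called higher and 777 lower, with a median log2 fold change of 1.68.

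In NASH against db, 4 of the 6 were called lower, against 36.5% of all features. Scd1 was 90.2-fold lower (52.6 to 170), Elovl5 25.5-fold lower (12.8 to 59.5), Dgat2 19.7-fold lower (9.45 to 49.5) and Acacb at least 4.01-fold lower in NASH. Acly, with 9 counts in NASH and 29 in db, stood at 0.670 (0.279 to 1.45), and Me1, with 6 counts in NASH and 23 in db, at 0.563 (0.188 to 1.42). The hepatocyte markers summed to 6126 CPM in NASH and 124134 CPM in db. With their sum as the total, Scd1 and Acacb were called lower in NASH, with log2 fold changes of -2.15 for Scd1 and -3.04 for Acacb. Elovl5 (-0.33) and Dgat2 (0.039) were then not called, and Acly (3.61) and Me1 (3.32) were called higher in NASH. On that basis 4223 of all 5347 features were called higher and 436 lower, with a median log2 fold change of 3.43.

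**Figure D5:**
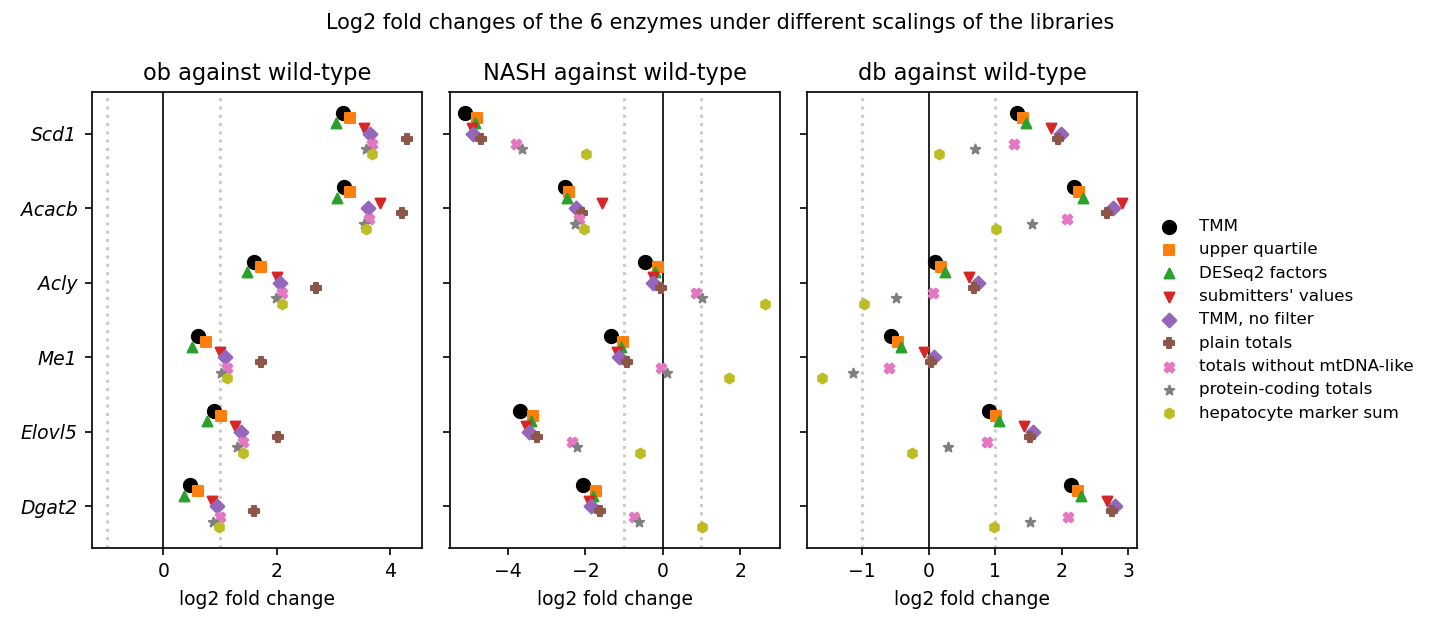
Log2 fold change of each enzyme in ob, NASH and db against wild-type under 9 scalings of the libraries, with dotted lines at 2-fold; horizontal axes differ between panels and symbols are shifted vertically for legibility. Black circles are TMM scaling. In ob all values lie right of 0, whereas in NASH the hepatocyte marker sum puts Acly, Me1 and Dgat2 right of 0 and in db it puts Acly, Me1 and Elovl5 left of 0.

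Of the regulators of the pathway, Srebf1, Mlxipl and Thrsp had few counts in both NASH and wild-type. Srebf1 had 276 counts in ob, 5 in NASH, 137 in db and 4 in wild-type. It was 19.7-fold higher (7.60 to 72.8) in ob and 13.9-fold higher (5.32 to 51.8) in db. Mlxipl had 349 counts in ob, 3 in NASH, 6 in db and 1 in wild-type, and it was 99.6-fold higher (17.8 to 3944) in ob. Mlxipl in db stood at 2.44-fold (0.296 to 112), so that the ob library alone held Mlxipl in quantity. Thrsp, the Spot 14 gene that accompanies lipogenesis, had 58 counts in ob, 1 in NASH, 29 in db and 5 in wild-type. It was 3.31-fold higher (1.34 to 10.6) in ob, and in db it stood at 2.36-fold (0.903 to 7.80). Nr1h3, the LXRalpha gene, had 16 counts in ob, 17 in NASH, 3 in db and 6 in wild-type, and stood at 2.49-fold (0.936 to 7.70) in NASH and was 4.92-fold lower (1.05 to 30.4) in db.

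Of 62 other genes of fat synthesis, 59 had a row and 41 passed the filter, 6 of them through a single library. In ob against wild-type 18 were called higher and 5 lower (median log2 fold change 0.75), in NASH 5 higher and 20 lower (median -0.90), and in db 25 higher and 6 lower (median 1.19). Over all features the shares called higher and lower were 34.7% and 15.7% in ob, 20.3% and 32.0% in NASH, and 28.9% and 21.5% in db, and the counts of each list that follow are to be read against these. The median of the 41 stayed above 0 in ob under every scaling tried. With the hepatocyte marker sum as the total it was 1.26 in ob, against 0.84 over all features. In db it fell to 0.076 with that sum, so that hardly any shift from 0 remained, while the median over all features was -0.76. In NASH it was 0.0024 under protein-coding totals, against 1.001 over all features. With the hepatocyte marker sum as the total it was 1.61 in NASH, against 2.63 over all features. Of the 9 regulators past the filter, 5 were called higher in ob and 0 lower, 2 and 3 in NASH, and 5 and 1 in db, and 2 of the 9 passed through a single library. Of the 5 in ob, Nr1h2, the LXRbeta gene, was counted 11 times in ob, against 1 count in wild-type, a ratio of 3.14 whose interval included equality (0.456 to 135). Of the 10 genes that supply acetyl-CoA, NADPH and glycolytic carbon, 6 were called higher and 1 lower in ob, 3 and 1 in NASH, and 6 and 1 in db. Slc25a10, the mitochondrial dicarboxylate carrier, had 75 counts in ob, 9 in NASH, 26 in db and 1 in wild-type. It was 21.4-fold higher (3.72 to 856) in ob, 7.90-fold higher (1.09 to 346) in NASH and 10.6-fold higher (1.74 to 433) in db. Aacs, which activates acetoacetate in the cytosol, had 20 counts in ob, 2 in NASH, 13 in db and 0 in wild-type, at least 1.76-fold higher in db. Pgd, of the pentose phosphate pathway, had 26 counts in ob, 21 in NASH, 2 in db and 3 in wild-type, and was 6.14-fold higher (1.83 to 32.2) in NASH. Idh1, the cytosolic isocitrate dehydrogenase, was 3.12-fold lower (1.49 to 6.47) in ob and stood at 1.32-fold (0.671 to 2.65) in NASH and 0.661-fold (0.341 to 1.32) in db.

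Of the 13 other elongases, desaturases and acyl-CoA synthetases past the filter, 5 were called higher and 3 lower in ob, 0 and 12 in NASH, and 8 and 2 in db, against the shares over all features given above (32.0% lower in NASH). The median log2 fold change of this list in NASH was -2.53. With the hepatocyte marker sum as the total it was -0.15, against 2.63 over all features on that basis. The Scd neighbours are among them and are uncertain, as described above. Elovl3, an elongase of very long saturated chains, had 7 counts in ob, 0 in NASH, 25 in db and 63 in wild-type. It was 31.5-fold lower (14.4 to 81.7) in ob, at least 23.9-fold lower in NASH and 6.20-fold lower (3.84 to 10.3) in db. Elovl3 thus ran opposite to Scd1 in ob and db. Elovl2, which acts on polyunsaturated chains beyond Elovl5, had 76 counts in ob, 7 in NASH, 164 in db and 62 in wild-type, and was 2.86-fold lower (2.01 to 4.05) in ob and 10.1-fold lower (4.62 to 26.1) in NASH. Tecr, the reductase of the elongation cycle, was 17.1-fold lower (2.63 to 719) in NASH, with 1 count in NASH and 15 in wild-type.

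Of the 9 other glycerolipid genes past the filter, 2 were called higher and 1 lower in ob, 0 and 4 in NASH, and 6 and 2 in db, against 34.7% and 15.7%, 20.3% and 32.0%, and 28.9% and 21.5% of all features. Their median log2 fold change in NASH was -0.86. It turned to 1.61 with the hepatocyte marker sum as the total, against 2.63 over all features on that basis. Agpat1, an acyltransferase of phosphatidic acid synthesis, had 6 counts in ob, 4 in NASH, 9 in db and 11 in wild-type. It was 6.43-fold lower (2.18 to 21.2) in ob and 3.01-fold lower (1.13 to 8.21) in db. Agpat1 passed the filter through the wild-type library alone, where it was highest, so these lower values are not independent of the filter. Mogat1, a monoacylglycerol acyltransferase, had 12 counts in ob, 0 in NASH, 14 in db and 0 in wild-type, at least 1.90-fold higher in db.

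The features whose pattern over the 4 libraries was most like that of Scd1 were sought among the 995 features that reached 50 counts in any library. Likeness was the Euclidean distance between log2(CPM + 1) values, each centred on its own mean. The nearest was Scd3, at a distance of 0.53. Next came Pcyt2, of phosphatidylethanolamine synthesis, at 1.61, Gm10768 at 1.86, Prlr, the prolactin receptor gene, at 1.86, and Apoc2, the cofactor of lipoprotein lipase, at 1.88. All 5 had 0 counts in NASH. Of the enzymes, Acacb had rank 10 with a distance of 2.11 and Elovl5 rank 31 with 2.65, while Dgat2 had rank 307, Me1 rank 555 and Acly rank 580.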

How the data were processed

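Total RNA of liver mitochondria was sequenced in 4 libraries, 1 per group, after ribosomal RNA depletion with a directional kit, per the labels' protocols. The submitters' processing notes name genome build mm10 and the tools Trimmomatic 0.32, Bowtie2 2.3.2, TopHat2 2.1.1 and bcl2fastq 2.20. They name no counting program, strand setting or rule for multi-mapped reads. The deposited table holds expected counts per feature, with fractions, per the file headers and values. Of counted features, 53.7% in ob, 89.3% in NASH, 85.3% in db and 89.5% in wild-type were within 0.01 of a whole number. A log2 column per library, TMM-normalized by the authors, served only as an alternative.

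Expected counts were rounded, and features reaching 10 counts in any library were kept. TMM factors (edgeR 4.0.16, R 4.3.3) were 1.51 in ob, 0.926 in NASH, 1.05 in db and 0.682 in wild-type. Calls used log2(CPM + 1) at 2-fold. Floors of 3 counts were 2.04 CPM in ob, 6.27 in NASH, 2.90 in db and 7.14 in wild-type. Intervals (scipy 1.17.1, Python 3.11.15) cover counting error only, because PCR copies of a molecule cannot be recognised. Exon lengths came from GENCODE M21, and promoter sequences from RefSeq. Features resembling mtDNA genes matched a mitochondrial transcript at 85% identity or more over at least 50% of their length (blastn 2.17.0), and the Scd coding sequences were aligned with mafft 7.526. DESeq2 1.42.0 size factors were an alternative. Folds, intervals and calls were tested on simulated data with known library totals, in genes above a minimum expected count in wild-type. That test did not cover the scaling between libraries or genes with low counts.

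The 10 genes and all lists were chosen with earlier results of these data known. All members were named. Of the other pathway genes, up to 4 per direction and comparison with wild-type with the largest change and at least 10 counts were named, plus Srebf1, Mlxipl and Thrsp. One gene that this rule picked, and part of a genotype label, are not reported here. Neat1 and Nr1h2, chosen after their values were seen, the marker genes and the Scd neighbours were named as context.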

Additional observations from a re-analysis of the deposited data

How the results depend on the processing

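With 1 library per group, no result can be checked against biological spread, and genes with under about 10 counts in a library give wide intervals. The scaling decided several counts of called enzymes. Over 9 settings, the hepatocyte marker sum not among them, the median log2 fold change of all features against wild-type lay between 0.30 and 1.41 for ob, between -0.15 and 1.001 for NASH and between -0.39 and 0.69 for db. Of called features, the share called higher was 68.8% under TMM for ob (64.9% to 93.0% over the settings), 38.8% for NASH (38.8% to 77.1%) and 57.4% for db (37.1% to 78.4%). No paired analysis was possible because each group has 1 library, and for the same reason no library could be left out.

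In ob against wild-type, the enzymes called higher numbered 6 under plain library totals. They numbered 5 without features resembling mtDNA genes, 5 under totals of protein-coding features, 5 without a filter, 5 with the submitters' values and 5 with the hepatocyte marker sum, against 3 under TMM. Among all 5347 features, 3298 were called higher under plain library totals and 2447 without features resembling mtDNA genes. The number was 2319 under protein-coding totals, 2392 without a filter, 2405 with the submitters' values and 2417 with the marker sum, against 1858 under TMM. In NASH against wild-type, 1 was called higher under protein-coding totals and 3 with the hepatocyte marker sum, against 0. Among all 5347 features these settings gave 2677 and 4103 called higher, against 1084. The number of enzymes called lower was 3 without features resembling mtDNA genes, 3 under protein-coding totals, 3 when the interval had to leave out equality and 2 with the hepatocyte marker sum, against 5. Among all features these 4 settings gave, in the same order, 831, 797, 762 and 501 called lower, against 1712. In db against wild-type, 1 was called higher with the hepatocyte marker sum, against 3, and 1 lower under protein-coding totals and 1 with the hepatocyte marker sum, against 0. Among all features the marker sum gave 562 called higher, against 1547. Protein-coding totals gave 1713 called lower and the marker sum 2210, against 1149. In db against ob, 0 were called higher under protein-coding totals and 0 with the hepatocyte marker sum, against 1, and 2 lower with DESeq2 size factors, against 4. Among all features protein-coding totals gave 153 called higher and the marker sum 40, against 1048. DESeq2 size factors gave 1378 called lower, against 1620. In NASH against ob, 3 were called lower with the hepatocyte marker sum, against 6, and among all features 777, against 2438. In NASH against db, 2 were called higher under protein-coding totals and 2 with the hepatocyte marker sum, against 0, and 2 lower with that sum, against 4. Among all features protein-coding totals gave 3152 called higher and the marker sum 4223, against 1223. The marker sum gave 436 called lower, against 1950.

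Called values changed sign in 7 cases. Me1 in NASH against wild-type had a log2 fold change of 0.099 under protein-coding totals, where the median over all features was 1.001. The hepatocyte marker sum was an alternative chosen after seeing the data. With it the log2 fold change was 1.72 for Me1 and 1.02 for Dgat2 in NASH against wild-type. In NASH against ob it was 0.55 for Acly, 0.60 for Me1 and 0.039 for Dgat2, and in NASH against db 0.039 for Dgat2. Over all features the median with that sum was 2.63 in NASH against wild-type, 1.68 in NASH against ob and 3.43 in NASH against db. The cause of the changes of sign was not tested. The other pseudocounts, upper-quartile factors and unrounded counts moved 0 of the counts of called enzymes by over 1.5 times. The share of Scd1 in the set needs no scaling.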
